A study of Rattus norvegicus with 16 samples.

Results

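Dorsal root ganglia (DRGs) of rats 7 days after tumor cell implantation (TCI) were compared with those of sham rats in 7 of the 16 RNA-seq samples of the series. The day 7 group held samples 1, 2 and 4 of its 4 samples, chosen by their labels and by the exclusion that the study made. The sham group held all 4 of its samples. Day 7 sample 3, which the study left out for its low correlation with other samples, is shown apart. The animals were adult female Sprague-Dawley rats, and the L3, L4 and L5 ganglia of the implanted side of a rat were pooled into a sample. TCI rats received Walker 256 mammary carcinoma cells, a rat tumor line, in the left tibia. Sham rats received a tibial injection of PBS by the labels, or of boiled tumor cells by the methods of the study. The sham ganglia were taken on day 14 by the labels, so that treatment and time since surgery cannot be told apart. Each sample came from another rat by the methods, and the labels name no batch.

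A DRG holds the cell bodies of the sensory neurons that innervate the limb, wrapped by satellite glia and joined to axons that Schwann cells sheathe. Resident macrophages, fibroblasts, vessels and the membranes of the nerve root lie between them. In nerve injury and in inflammation, macrophages and lymphocytes can enter the ganglion, and interferon from lymphocytes can raise antigen presentation genes in many cell types. In bulk RNA, fewer cells of a type and less RNA per cell cannot be told apart, and the same holds for more cells and more RNA per cell.

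Values were FPKM (fragments divided by transcript length and by the mapped total of the sample), a level per length that can be compared between genes. The files hold no fragment totals, so the depth behind a value is unknown and no counting error was computed. Each sham sample had 13150 to 13239 genes at 1 FPKM or more, and each of the 3 day 7 samples 13534 to 13805. Defining markers of a ganglion were abundant in every sample: the 16 pan-neuronal genes summed to 19400 to 20400 FPKM in sham and to 16300 to 17300 FPKM on day 7. Markers of skeletal muscle stood apart in 2 samples. The 25 muscle genes summed to 22.2 to 22.7 FPKM in sham samples 1 to 3 and to 25.9 to 33.4 FPKM on day 7, against 727 FPKM in sham sample 4 and 30800 FPKM in day 7 sample 3.

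Day 7 ganglia showed strong increases of a small group of genes, smaller increases of many more and slight decreases of others. Of 14023 genes tested, 257 were higher at the cut-offs of the study (a log2 fold change of at least 1 and an adjusted p of at most 0.001), or 1.83% of the tested genes, and 0 were lower (0%). All fold changes are differences of group means of log2(FPKM + 1), which understate the change of genes at low levels. At an adjusted p of at most 0.05 with any fold, which is the test meant below by "rose" and "fell", 2028 genes rose (14.5%) and 484 fell (3.45%). At an unadjusted p under 0.05 there were 3176 higher and 1202 lower genes. Genes with a log2 fold change of 1 or more numbered 575, and those with -1 or less numbered 17. Of the 2028 genes that rose, 1477 had a log2 fold change under 1. The median change was 1.92 for the 257 genes, 0.54 for the 2028 and -0.25 for the 484, against 0.04 for all tested genes. The raised genes started low, with a median of 1.54 FPKM in sham for the 257, while the lowered genes were well expressed, with a median of 28.1 FPKM against 9.47 FPKM for all tested genes. Their share of all FPKM moved accordingly. The 257 genes made up 0.355 to 0.442% in sham and 1.62 to 2.03% on day 7, and the 484 genes 9.18 to 9.47% in sham and 7.12 to 7.76% on day 7.

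The number at the cut-offs of the study depended on single libraries. It was 49, 52 and 210 without day 7 samples 1, 2 and 4, and 68, 69, 106 and 127 without sham samples 1, 2, 3 and 4, while 254 to 257 of the 257 genes kept an adjusted p of at most 0.05 and their direction. Without each of the same libraries, in the same order, 307, 334 and 296 and then 300, 313, 341 and 373 genes fell.

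**Figure D1:**
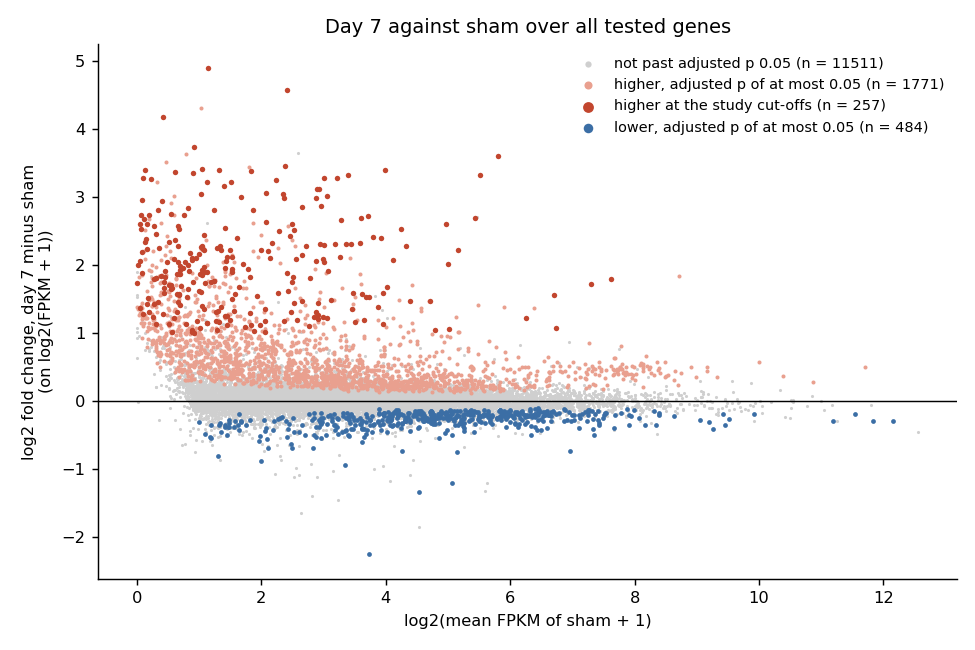
Log2 fold change (day 7 minus sham) against the mean sham level, log2(FPKM + 1), for the 14023 tested genes, each point 1 gene. The 257 genes at the cut-offs of the study (dark red) sit mostly at low sham levels and reach a fold change of 4.90, while the 484 lowered genes (blue) form a thin band just under 0 at middle and high levels.

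Most of the tested genes of immune cells rose, although most of the 2028 genes that rose were in no list. Over 19 lists of immune cells and immune programs, 231 of 293 tested genes rose (78.8%), 89 of them at the cut-offs of the study, and 1 fell. A gene near 0 in sham was tested only where other samples lifted it over the filter, so that shares of tested genes do not stand for whole lists. With no filter, 245 of 385 genes of these lists rose (63.6%). Of the 64 tested genes in 4 lists of fibroblasts, vessels and matrix, 26 rose (40.6%) and 0 fell. The lists of neurons, synapses, channels and receptors held 42 of 257 genes that fell (16.3%) and 11 that rose, and those of glia and lipid synthesis 10 of 82 that fell (12.2%) and 3 that rose. After centring each sample on its median gene 106 genes of the neuronal lists fell. The count was 111 with quantile normalization and 69 after rescaling to a fixed total (TPM). For glia and lipids it was 40, 21 and 19. Over all 14023 tested genes 2057, 2320 and 945 fell under these scalings. The count that rose was 221, 214 and 226 for the immune lists, and 24, 20 and 23 for fibroblasts, vessels and matrix. With a sample left out, 20 to 34 genes of the neuronal lists fell, fewest without day 7 sample 4. For glia and lipids 6 to 9 fell, and over all tested genes 296 to 373. In the immune lists 192 to 216 then rose. With no filter, 32 of 318 neuronal genes and 8 of 84 genes of glia and lipids fell. Genes in no list made up 150 of the 257 genes, 1632 of the 2028 genes that rose and 426 of the 484 genes. The plot of the gene lists gives each list.

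**Figure D2:**
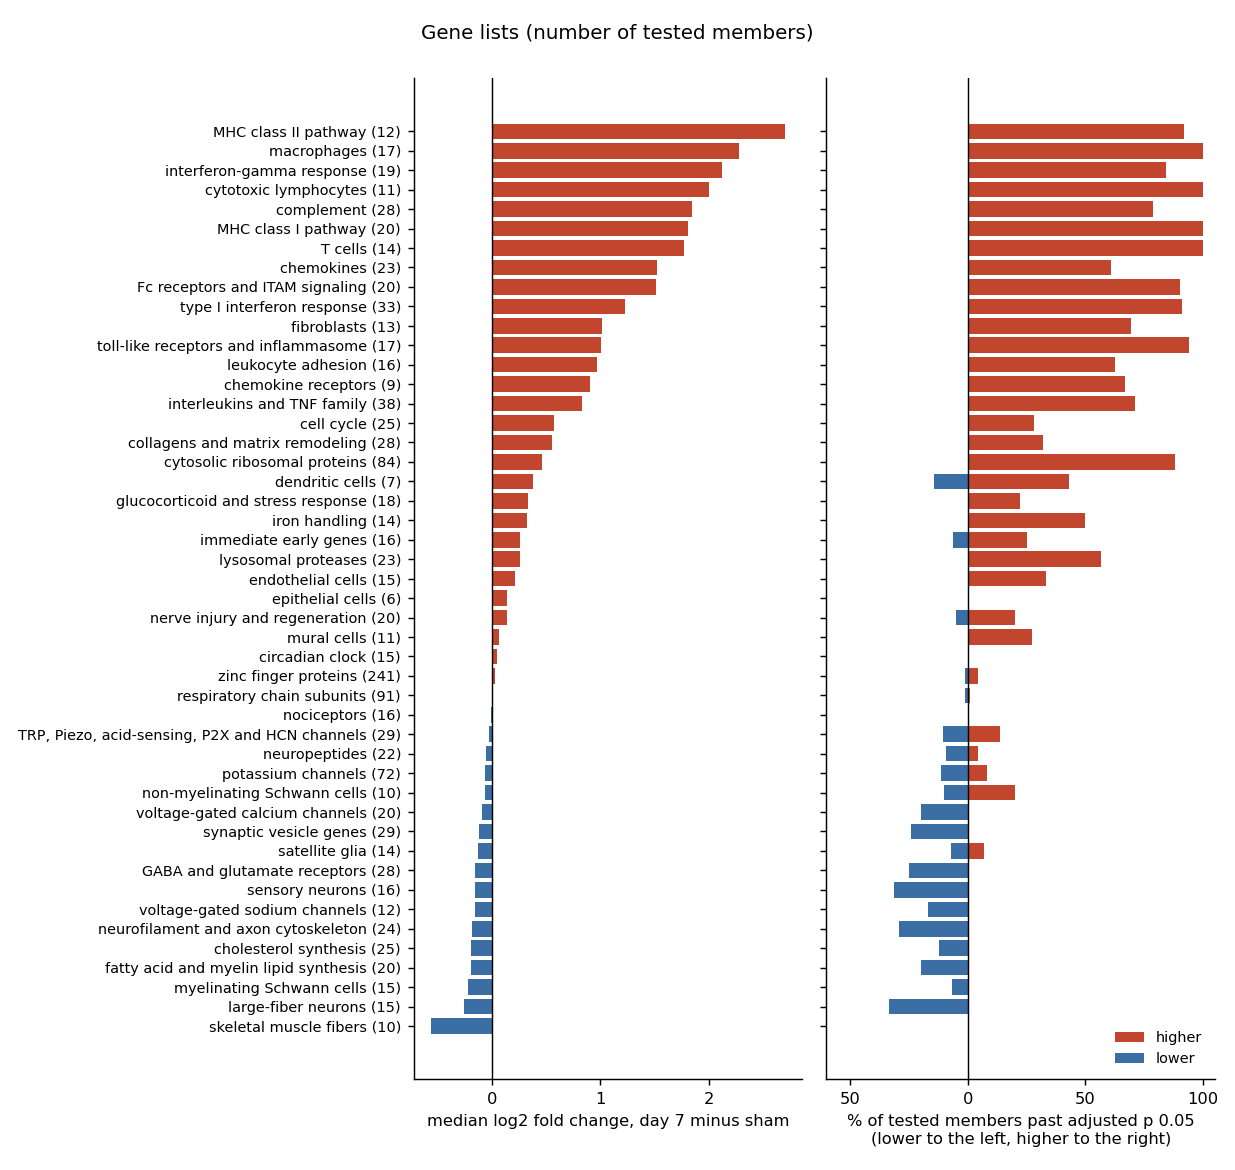
Median log2 fold change of each gene list with 6 or more tested members (left, day 7 minus sham, on log2(FPKM + 1)) and the percentage of its tested members that rose or fell at an adjusted p of at most 0.05 (right), with the number of tested members in brackets. Immune lists fill the top, with medians up to 2.70, and neuronal, glial and lipid lists lie slightly under 0.

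Macrophage genes rose as a whole. All 17 markers rose, with a median log2 fold change of 2.28, and their summed level went from 75.5 to 140 FPKM in sham to 984 to 1320 FPKM on day 7. Lyz2, the lysozyme of macrophages, had 35.9, 43.1, 69.7 and 71.3 FPKM in sham samples 1 to 4 and 657, 780.4 and 550.5 FPKM in day 7 samples 1, 2 and 4. The groups were far apart, and its fold change was 3.61 ± 0.38 (SE, adjusted p = 9.27e-05). Cd68, a lysosomal glycoprotein of phagocytes, was at 1.7, 1.98, 2.53 and 2.49 FPKM in sham and 24.96, 31.9 and 18.1 FPKM on day 7, which is 11.5 times the sham mean. Csf1r, the receptor for colony-stimulating factor 1, changed by 2.15 ± 0.23 (SE) and Aif1, which encodes the calcium-binding protein Iba1, by 2.30 ± 0.36. Markers of resident macrophages rose as well, the fractalkine receptor Cx3cr1 by 1.43 ± 0.31, the lipid receptor Trem2 by 1.45 ± 0.26, and the mannose receptor Mrc1 by 1.68 ± 0.28. Cd163, the hemoglobin scavenger receptor, rose by 1.28 (adjusted p = 0.0203), a call that was lost without day 7 sample 2, day 7 sample 4 or sham sample 1. The differences between these genes were not tested. Lyc2, a lysozyme gene with a sequence close to Lyz2 whose reads may be split between them, had 3.3, 3.22, 0.14 and 10.6 FPKM in sham and 87.3, 108 and 85.6 FPKM on day 7.

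Fc receptors and the adaptors that signal for them through ITAM motifs followed, with 18 of 20 genes raised and a median of 1.51. Fcgr3a, a low-affinity receptor for immunoglobulin G, was nearly absent from sham, at 0.09, 0.09, 0.64 and 0.53 FPKM, and was at 19.2, 25.3 and 24.5 FPKM on day 7. The fold change was 4.18 ± 0.53 (SE, adjusted p = 0.000238). The adaptors Tyrobp and Fcer1g rose by 2.85 ± 0.28 and 3.02 ± 0.31. The activating receptor Fcgr1a and the inhibitory receptor Fcgr2b both passed the cut-offs of the study, at 7.37 and 11 times their sham means.

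Of 28 complement genes, 22 rose, with a median of 1.85. C1qa, a chain of the C1q recognition protein, was at 5.85, 7.9, 11.7 and 12.5 FPKM in sham and 84.04, 118 and 102 FPKM on day 7. C1qc moved with it, by 3.28 ± 0.35 (SE). Downstream, C2, a serine protease of the classical pathway, had 3.36, 3.5, 5.95 and 4.01 FPKM in sham and 58.3, 67.6 and 42.8 FPKM on day 7. C3, the central component, went from 0.58, 0.44, 0.87 and 1.58 FPKM to 20.3, 13.9 and 19.3 FPKM. Factor B of the alternative pathway (Cfb) rose by 3.23 ± 0.36. For each of these genes all day 7 samples lay above all sham samples, as they did for 23.8% of all tested genes.

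T cell and cytotoxic genes went from near absence to clear expression. Of 16 T cell genes 14 were tested and rose, and 15 did with no filter on low values. Some, such as Cd3e and Cd8a, were near 0 in sham and passed the filter through tumor samples, so that the count is no measure of the whole list. The summed level of the list was 6.8 to 10.1 FPKM in sham and 49.2 to 118 FPKM on day 7. Cd3e, a signaling chain of the T cell receptor complex, was at 0.04, 0, 0.12 and 0.05 FPKM in sham and 6.94, 11.6 and 4.45 FPKM on day 7. Cd8a, the coreceptor of cytotoxic T cells, was at 0.08, 0.02, 0.06 and 0.13 FPKM in sham and 11.9, 13.7 and 5.03 FPKM on day 7. Day 7 sample 4 was the lowest of the 3 for both genes, and still lay far above sham. Cd4, which rat macrophages express as well as helper T cells, was already at 4.49, 5.15, 7.23 and 6.79 FPKM in sham and rose to 24.2, 27.4 and 18.1 FPKM. Of 16 cytotoxic genes, which T cells and natural killer cells share, 11 passed the filter in the same way and rose, and 11 of 16 rose with no filter. Without day 7 sample 1, 7 were still tested and 6 rose, and without day 7 sample 2, 6 were tested and 6 rose. Nkg7, a granule membrane protein, had 0.09, 0, 0.21 and 0.06 FPKM in sham and 10.2, 16.7 and 6.58 FPKM on day 7 (fold change 3.40 ± 0.41, SE, adjusted p = 0.000205). Perforin (Prf1) changed by 2.73 ± 0.36, and the granule protease Ctsw by 3.26 ± 0.25. Granzyme B (Gzmb) stayed low, at 0.82, 1.18 and 1.04 FPKM on day 7, and its call (adjusted p = 0.0419) was lost without any of the 7 samples.

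Other leukocytes were less represented. Of 13 B and plasma cell markers found in the files, 12 stayed under the filter of 1 FPKM in 3 samples, with no value over 0.69 FPKM in the 7 samples, and the summed level of the list was 4.13 to 5.12 FPKM in sham and 5.21 to 6.17 FPKM on day 7. The tested marker, the B cell lectin Cd22, was at 3.18, 2.71, 3.31 and 4.02 FPKM in sham and 3.71, 3.93 and 3.46 FPKM on day 7 (adjusted p = 0.543), and its fold change of 0.13 turned negative under quantile normalization. Of 14 neutrophil markers 3 were tested and 2 rose, and 5 of 14 did with no filter. The summed level of the list was 5.06 to 5.91 FPKM in sham and 10.3, 14 and 31.3 FPKM in day 7 samples 1, 2 and 4. S100a9, a calcium-binding protein abundant in neutrophils and also made by monocytes, had 0.25, 0, 0 and 0.1 FPKM in sham and 2.11, 2.59 and 10.1 FPKM on day 7, with the highest value in sample 4. Of 11 mast cell markers 1 was tested and did not pass, and 3 of 11 rose with no filter. The summed level of the mast cell list was 14 to 15.5 FPKM in sham and 16.3 to 19.3 FPKM on day 7. Of 7 tested dendritic cell markers 3 rose, among them Clec10a, a lectin that macrophages also carry, by 2.51 ± 0.24 (SE). Another, the growth factor receptor Flt3, fell by 0.19, a call that was lost without 5 of the 7 samples.

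Antigen presentation rose through both MHC pathways. MHC class II molecules show peptides to helper T cells, and 11 of 12 genes of this pathway rose with the highest median of the lists that had 6 or more tested members, 2.70. Cd74, the invariant chain that escorts class II molecules, was at 42.03, 26.1, 71.1 and 40.5 FPKM in sham and 615, 428 and 307 FPKM on day 7, with the highest value in sample 1. RT1-Da, an alpha chain, had 13.5, 8.71, 23.1 and 14.4 FPKM in sham and 246, 149 and 108 FPKM on day 7, also highest in sample 1 (fold change 3.40 ± 0.35, SE, adjusted p = 9.14e-05). The beta chain RT1-Bb was 12 times its sham mean. MHC class I molecules show peptides to cytotoxic T cells, and all 20 tested genes of this pathway rose, with a median of 1.81. B2m, the shared light chain, was abundant at 196, 161, 219 and 211 FPKM in sham and reached 676, 700.0 and 669 FPKM on day 7, with little spread in either group. The class I gene RT1-A2 rose by 2.70 ± 0.29, and the immunoproteasome subunits Psmb8 and Psmb9 by 2.99 ± 0.36 and 3.04 ± 0.37. MHC genes of the rat are a family of close copies, so that reads may be split between RT1 genes.

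Interferon-responsive genes rose together. Interferon-gamma, which T cells and natural killer cells secrete, acts through promoters with a GAS motif and through IRF factors on promoters with an ISRE motif, while type I interferons act mainly through the ISRE. The promoters of 4 genes that rose are shown to let the motifs be seen in place. The sequences are from the RefSeq promoter table for assembly GRCr8, which holds 250 bases before and 50 after the start of a gene, and capitals mark matches, on either strand, to GAAANNGAAA (ISRE) or TTCNNNGAA (GAS).
Igtp promoter, chr10:42874893-42874993, plus strand: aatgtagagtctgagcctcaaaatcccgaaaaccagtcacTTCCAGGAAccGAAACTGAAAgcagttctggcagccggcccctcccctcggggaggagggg
Irgm2 promoter, chr10:42889817-42889917, plus strand: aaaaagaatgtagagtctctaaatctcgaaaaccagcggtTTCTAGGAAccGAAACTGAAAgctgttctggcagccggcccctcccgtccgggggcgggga
Irf1 promoter, chr10:38417753-38417841, plus strand: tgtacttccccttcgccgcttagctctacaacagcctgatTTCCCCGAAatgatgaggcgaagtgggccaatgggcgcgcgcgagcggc
B2m promoter, chr3:129549140-129549229, plus strand: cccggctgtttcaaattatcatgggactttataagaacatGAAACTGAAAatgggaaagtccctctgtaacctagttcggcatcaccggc
In Igtp the GAS match began 114 bases before the start and the ISRE match 103 bases before it. In Irgm2 they began 113 and 102 bases before it, so that both matches are spaced alike in these genes of the same chromosome. Irf1 held a GAS match alone, and B2m an ISRE match alone. Of all 27457 genes with a listed promoter, 3.77% held the ISRE letters and 8.68% the GAS letters. Of 19 tested genes of the interferon-gamma list, 18 had a promoter in the table, and 9 held the ISRE letters and 9 the GAS letters. Of 20 class I genes 18 had a promoter, with 9 and 2. Of 12 class II genes 10 had a promoter, with 1 and 0. These matches are descriptions of letters and do not show binding.

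Of the 19 genes in the interferon-gamma list 16 rose, with a median of 2.12. Igtp and Irgm2, GTPases of the immunity-related family that guard against intracellular microbes, passed the cut-offs of the study. With any 1 of the 7 samples left out, 0 genes of this list passed those cut-offs, while 15 to 16 still rose. Igtp was at 2.92, 2.67, 4.5 and 2.77 FPKM in sham and at 25.1, 25.3 and 24.1 FPKM on day 7, and Irgm2 rose by 2.52 ± 0.38 (SE). The transcription factor gene Irf1 was at 3.37, 3.4, 4.17 and 4.41 FPKM in sham and 22.6, 21.3 and 21.7 FPKM on day 7, which is 5.71 times its sham mean. Cd274, which encodes the checkpoint ligand PD-L1, was at 7.68, 8.12, 8.58 and 7.62 FPKM in sham and 11.4, 11.4 and 10.9 FPKM on day 7 without passing the test (adjusted p = 0.107), although the groups did not overlap. Cxcl10, a chemokine for activated T cells, had 2.81, 1.64, 3.4 and 2.38 FPKM in sham and 33.7, 29.2 and 44.95 FPKM on day 7. Its relatives Cxcl9 and Cxcl11 rose by 3.44 ± 0.56 and 3.22 ± 0.63. Of 33 genes in the type I interferon list, 30 rose with a median of 1.22, and 17 did without day 7 sample 2. Isg15, a ubiquitin-like modifier, was at 4.58, 4.17, 5.7 and 4.72 FPKM in sham and 17.1, 40.7 and 28.2 FPKM on day 7, with the highest value in sample 2. The antiviral enzyme gene Rsad2 and the factor Irf7 rose by 2.37 ± 0.49 and 2.58 ± 0.56. Slfn4, a Schlafen family gene, and MGC108823 were at most 1.51 and 2.21 FPKM in sham and stood at 19.7, 34.3 and 19.9 and 23.4, 19.7 and 17.7 FPKM on day 7.

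Day 7 sample 3 had higher values for many of these genes, while MGC108823 lay within the range of the 3 others, at 19.4 FPKM. Over the interferon-gamma list its median difference from the sham mean was 3.60, against the fold change of 2.12 above. Cxcl9 was at 118 FPKM in it, Irf1 at 52.1 FPKM and Igtp at 78.5 FPKM, each above the 3 other day 7 samples. For T cell genes the order was the other way, since Cd3e was at 2.59 FPKM and Cd8a at 3.2 FPKM in sample 3, below the 3 other samples and above all sham samples. Over the 257 raised genes, sample 3 was above all 4 sham samples in 254. The part of its muscle RNA in these values was not tested.

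**Figure D3:**
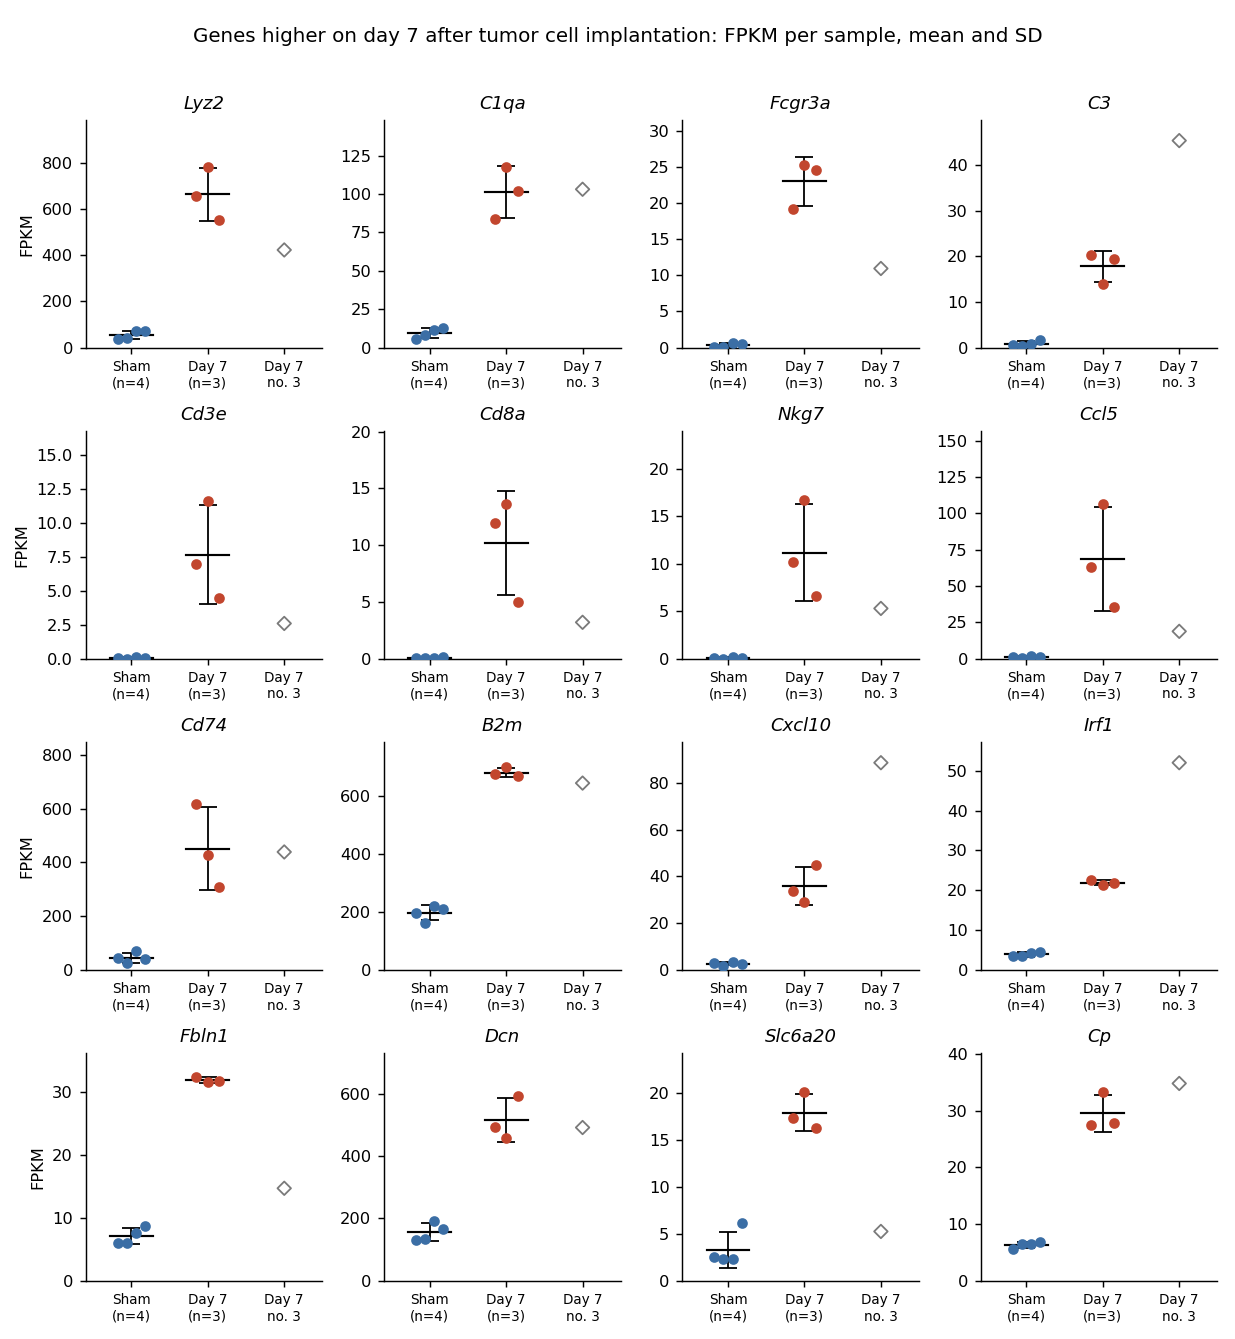
FPKM of 16 raised genes in each sham sample (blue), each of day 7 samples 1, 2 and 4 (red) and day 7 sample 3 (open diamond), with the mean (long bar) and SD of the sham and day 7 groups, each panel on its own axis from 0. Every red point lies above every blue point in each panel, and sample 3 lies below the red points for Cd3e, Cd8a, Nkg7 and Ccl5, among others, and above them for C3, Cxcl10, Irf1 and Cp.

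Chemokines and their receptors rose in part. Of 23 tested chemokines 14 rose, and of 9 tested receptors 6. With no filter on low values 14 of 34 chemokines and 10 of 22 receptors rose. Ccl5, a T cell and macrophage chemokine and the gene with the largest fold change by the naming rule, was at 1.28, 0.49, 2.05 and 0.98 FPKM in sham and 63.4, 107 and 35.8 FPKM on day 7 (fold change 4.90 ± 0.43, SE, adjusted p = 3.93e-05). Cxcr3, the receptor for Cxcl9 to Cxcl11 on activated T cells, rose from at most 0.08 FPKM to 4.03, 7.15 and 1.76 FPKM. It was near 0 in sham and passed the filter through tumor samples. Ccl4 and the B cell chemokine Cxcl13 rose by 2.91 ± 0.50 and 3.64 ± 0.75. Ccl2, which recruits monocytes, was at 14.2, 11.8, 15.8 and 13.99 FPKM in sham and 27.2, 19.4 and 25.7 FPKM on day 7, which did not pass the test (adjusted p = 0.147).

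Receptors and enzymes of innate immunity rose as well. Of 38 tested interleukin and TNF family genes 27 rose, and 12 more lay under the filter. The raised genes included the shared cytokine receptor chains Il2rg and Csf2rb, by 1.80 ± 0.32 and 1.79 ± 0.26 (SE). Of 17 tested genes of toll-like receptors and the inflammasome 16 rose, and 6 more lay under the filter. Casp1, the inflammasome protease, was at 1.03, 0.52, 1.01 and 0.61 FPKM in sham and 5.16, 6.62 and 5.37 FPKM on day 7, and its adaptor Pycard rose by 1.96 ± 0.28. Of 16 tested leukocyte adhesion genes 10 rose, and 4 more lay under the filter. The endothelial ligand Icam1 rose by 1.66 ± 0.30 and Selplg, the selectin ligand of leukocytes, by 2.24 ± 0.37. Vcam1 rose by 1.11 (adjusted p = 0.0166), a call lost without day 7 sample 2. Of 23 lysosomal proteases and related genes 13 rose. Cathepsin S (Ctss), which trims the invariant chain, was at 6.74 times its sham mean, and Gpnmb, a glycoprotein of activated macrophages, at 5.69 times.

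Iron genes contain an abundant pair. Fth1 and Ftl1, the chains of ferritin that store iron, were at 3559, 3294, 3163 and 3271 FPKM and 654, 622, 645 and 633 FPKM in sham and at 4876, 4056 and 5167 FPKM and 853, 773 and 826 FPKM on day 7. Both rose slightly, by 0.49 ± 0.0813 and 0.35 ± 0.0647 (SE). Ceruloplasmin (Cp), a ferroxidase that lets iron leave cells, rose by 2.06 ± 0.26, and Slc11a1, the iron transporter of phagocytic vesicles, by 2.24 ± 0.33. In all 7 of 14 iron genes rose and 0 fell.

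Connective tissue genes rose beside the immune genes. Of 13 tested fibroblast genes 9 rose, with a median of 1.011. Fbln1, a matrix glycoprotein, was at 5.91, 6.06, 7.61 and 8.63 FPKM in sham and 32.4, 31.5 and 31.7 FPKM on day 7, with little spread in either group (fold change 2.04 ± 0.12, SE, adjusted p = 2.61e-06). Decorin (Dcn), a proteoglycan that binds collagen, rose from 129, 135, 191 and 167 FPKM to 493, 456 and 593 FPKM, and Mgp, an inhibitor of calcification, by 1.36 ± 0.28. The collagen genes that define the same cells did not pass the test. Col1a1 was at 134, 150.4, 185 and 145 FPKM in sham and 292, 259.7 and 129.5 FPKM on day 7, where samples 1 and 2 lay above sham and sample 4 below all 4 sham samples (adjusted p = 0.393). Col1a2 was also lowest in sample 4 on day 7, at 46.99, 48.5 and 25.7 FPKM (adjusted p = 0.073). Of 28 collagen and matrix genes 9 rose, and 14 did without day 7 sample 4.

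Genes of the leptomeninges, the thin membranes that follow the nerve root to the ganglion, were gathered after the values were seen, so that their counts describe the choice. Of 27 such genes 23 were tested, and 18 rose with a median of 1.03. Slc6a20, an amino acid transporter, was at 2.53, 2.3, 2.27 and 6.2 FPKM in sham and 17.4, 20.1 and 16.3 FPKM on day 7, with sham sample 4 the highest of sham. Foxc1, a transcription factor of meningeal fibroblasts, was at 1.58, 1.73, 1.79 and 1.87 FPKM in sham and 5.48, 5.73 and 5.27 FPKM on day 7. Aldh1a2, a retinoic acid synthesis enzyme, rose by 1.60 ± 0.24 (SE). Ptgds, a prostaglandin D synthase and an abundant meningeal product, was at 202, 129, 183 and 341 FPKM in sham and 245, 396 and 409 FPKM on day 7 and did not pass the test (adjusted p = 0.148). The summed level of the list was 219 to 464 FPKM in sham and 446 to 620 FPKM on day 7, so that the groups overlapped through sham sample 4. In day 7 sample 3 it was 342 FPKM. Whether a varying amount of root membrane in the dissections takes part in these values was not tested.

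Lists of vessels, dividing cells and ribosomes had smaller medians. Of 15 endothelial genes 5 rose and 0 fell, with 2 that rose without day 7 sample 1 or 2 and 3 without sham sample 4. After centring 3 rose, with quantile normalization 1 and in TPM 4, against 1357, 1341 and 1550 of all 14023 tested genes. Cdh5, the cadherin of endothelial junctions, was at 6.08, 5.93, 5.86 and 7.34 FPKM in sham and 13.8, 14 and 8.72 FPKM on day 7 (lost without day 7 sample 1 or 2), while Pecam1, another junction protein, was at 5.48, 5.83 and 5 FPKM on day 7 and did not pass the test (adjusted p = 0.279). The growth factor receptor Kdr was at 3.4, 3.73, 3.34 and 3.2 FPKM in sham and 3.68, 3.94 and 2.72 FPKM on day 7, and Flt1, another receptor of the same family, at 5.15, 6.21, 4.82 and 5.29 FPKM and 5.77, 5.81 and 4.44 FPKM. Neither passed the test (adjusted p = 0.999 and 0.97), and the sign of both changed between settings. The mural cell list had a median of 0.06, against 0.04 for all tested genes. Of its 11 genes 3 rose (27.3%, against 14.5% of all), led by the smooth muscle gene Tagln at 3.31 times its sham mean. The receptor Pdgfrb of these cells changed by 0.06 ± 0.0662 (adjusted p = 0.579), a sign that flipped after centring and under quantile normalization. All 25 tested cell cycle genes had positive fold changes, with a median of 0.57, and 7 rose. This number was 1 without day 7 sample 1 or 2, 13 without day 7 sample 4, and 2, 3, 4 and 3 without sham samples 1 to 4. Mcm3, a helicase subunit of replication, was at 1.24, 0.95, 1.2 and 1.05 FPKM in sham and 2.98, 3.39 and 2.23 FPKM on day 7, a call lost without day 7 sample 1 or 2. Mki67, a marker of proliferation, was at 1.76, 2.66 and 0.97 FPKM on day 7 with the lowest value in sample 4, and did not pass the test (adjusted p = 0.0642). Cytosolic ribosomal protein genes rose slightly and broadly. Of 84 genes 74 rose, with a median of 0.46, and their summed level was 16600 to 17400 FPKM in sham and 21800 to 24500 FPKM on day 7. Many ribosomal protein genes have processed copies in the genome that may share reads. Of 91 respiratory chain genes 1 rose and 1 fell, with a median of 0.01.

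The 484 lowered genes were marked by small changes. Of these 484, 3 had a log2 fold change of -1 or less and 31 one of -0.5 or less, and the interquartile range was -0.34 to -0.20. The lowest day 7 value was in sample 4 for 282 of them, in sample 2 for 102 and in sample 1 for 100. Sample 3 lay below all 4 sham samples in 445 of the 484, with a median difference from the sham mean of -0.65. The split between directions depended on the scaling. FPKM as deposited gave 80.7% of the calls as higher. After centring each sample on its median gene, which moved the median fold change of all genes from 0.04 to -0.07, 1357 genes rose and 2057 fell (39.7% higher). Quantile normalization gave 1341 and 2320 (36.6%), and rescaling to TPM gave 1550 and 945 (62.1%). More of the 14023 tested genes fell under each of these scalings. The larger list counts given below therefore do not by themselves set a list apart.

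Some genes of neurons at large fell. Of 16 pan-neuronal genes 5 fell and 0 rose, with a median of -0.16. The count that fell was 8, 7 and 9 after centring, with quantile normalization and in TPM, and 2 with no filter. The 5 were Nefl, Nefm, Nefh, Rbfox3 and Snap25. Lists share genes, so that their counts are not separate. The neurofilament genes count again in the axon cytoskeleton list, Nefh in the large-fiber list and Snap25 in the synaptic list. The neurofilament chains, the scaffold of thick axons, were among the most abundant RNAs of the ganglion. Nefl was at 4699, 4608, 4481 and 4419 FPKM in sham and 3654, 3926 and 3573 FPKM on day 7, and Nefh at 2431, 2320.1, 2207 and 2363 FPKM and 1863, 1990.4 and 1821 FPKM. The groups did not overlap, as was so in this direction for 10.1% of all tested genes. The fold changes were -0.29 ± 0.0663 (SE) for Nefl, -0.30 ± 0.0675 for Nefm and -0.30 ± 0.0603 for Nefh. Their calls held without each sample in turn. Over the other settings the highest adjusted p was 0.199, 0.138 and 0.0558 in this order, so that each call was lost in some setting. Rbfox3, which encodes the neuronal nuclear protein NeuN, fell by 0.24 (adjusted p = 0.0112), a call lost without day 7 sample 1. The neuronal tubulin Tubb3 was at 1804, 1942 and 1985 FPKM on day 7 and 2114, 1958, 2126 and 2224 FPKM in sham, with overlap and no call (adjusted p = 0.231). The ubiquitin hydrolase Uchl1, at 2333, 2238, 2329 and 2361 FPKM in sham and 2096, 2099 and 2508 FPKM on day 7, and the actin regulator Avil, at 249.8, 223, 253 and 265 FPKM and 230.2, 242 and 272 FPKM, overlapped as well (adjusted p = 0.758 and 0.992), and the sign of both changed between scalings. All 24 genes of the neurofilament and axon cytoskeleton list had negative fold changes and 7 fell, against 16 after centring and 14 with quantile normalization or in TPM. Map1b, a microtubule-associated protein of growing and adult axons, was at 628, 619, 608 and 584 FPKM in sham and 485, 505 and 394 FPKM on day 7.

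Of 15 genes listed for large-fiber neurons, which carry touch and position sense, 5 fell, and of 16 listed for nociceptors, which carry pain, 0 fell. These counts were 12 and 3 after centring, 11 and 1 with quantile normalization and 7 and 1 in TPM. Over all 14023 tested genes 484 fell as deposited, against 2057, 2320 and 945 under these scalings. A test of the difference between these lists was not made. The 5 large-fiber genes that fell were Nefh, Cntnap2, Kcna2, Scn1a and Asic1, and the rest of that list did not pass the test. Cntnap2, which anchors potassium channels beside the node of Ranvier, was at 21.98, 22.9, 21.4 and 21.6 FPKM in sham and 18.4, 17.5 and 13.8 FPKM on day 7 (fold change -0.40 ± 0.0907, SE, adjusted p = 0.00864). Kcna2, a potassium channel at the same place, fell by 0.32, and the sodium channel Scn1a by 0.29, both calls that were lost without any of 4 samples. Scn8a and Kcna1 were lowest in day 7 sample 4, at 12.2 and 46.2 FPKM, and did not pass the test (adjusted p = 0.0587 and 0.0936). The large-fiber count was 3 without day 7 sample 4, sham sample 1 or sham sample 2, and also with no filter. Ntrk3, the neurotrophin-3 receptor of these neurons, was at 6.44, 7.47, 5.83 and 5.77 FPKM in sham and 6.43, 6.52 and 5.6 FPKM on day 7, with overlap (adjusted p = 0.83). Among nociceptor genes Trpv1, the capsaicin receptor, was at 40.8, 34.8, 41.5 and 45.7 FPKM in sham and 37.9, 40.02 and 44.95 FPKM on day 7, a fold change of 0.01 ± 0.087, a sign that flipped under all 3 other scalings. The sodium channel Scn10a changed by -0.16 ± 0.0681 and the ATP receptor P2rx3 by 0.24 ± 0.10, neither past the test (adjusted p = 0.139 and 0.132). Scn11a, another sodium channel of nociceptors, changed by 0.09 ± 0.0929 (adjusted p = 0.557), a sign that flipped after centring. Missing the threshold does not show that the levels were equal.

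Synaptic and receptor genes gave small decreases. Of 29 synaptic vesicle genes 7 fell and 0 rose, and 3 to 4 fell without any 1 of the 7 samples. After centring 16 fell, with quantile normalization 18 and in TPM 12. Snap25, a fusion protein of synaptic vesicles, was at 761, 776, 706 and 667 FPKM in sham and 605, 594 and 606 FPKM on day 7. Syt2, a fast calcium sensor, fell by 0.43 ± 0.10 (SE), with the lowest value in sample 4. Of 28 receptors for GABA and glutamate 7 fell, and 4 did without sham sample 2, 16 after centring and 17 with quantile normalization. Gria4, an AMPA receptor subunit, was at 6.04, 6.63, 6.3 and 5.86 FPKM in sham and 4.11, 4.01 and 4.08 FPKM on day 7. The GABA-A receptor subunits Gabrg1 and Gabrb2 fell by 0.54 ± 0.13 and 0.38 ± 0.10, calls that were lost without day 7 sample 4 and, for Gabrb2, also without sham sample 2.

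Of 72 potassium channel genes 8 fell and 6 rose (8.33%, against 14.5% of all tested genes). After centring 25 fell and 4 rose, with quantile normalization 27 and 2, and in TPM 15 and 5. The number that fell was 1 without day 7 sample 4, 5 without day 7 sample 1 or sham sample 1, 2 without sham sample 2 and 4 without sham sample 3. The number that rose was 3 without day 7 sample 1, day 7 sample 2 or sham sample 1. Kcnj10, the inward rectifier with which satellite glia take up potassium, had the largest decrease among them. It was at 35.03, 33.1, 32.1 and 37.5 FPKM in sham and 20.9, 23.2 and 16.5 FPKM on day 7 (fold change -0.75 ± 0.20, SE, adjusted p = 0.0187), a call that was lost without day 7 sample 4. The M-current subunit Kcnq3 fell by 0.51 (adjusted p = 0.0458), a call lost without 5 of the 7 samples. Those that rose were expressed at low levels. Kcnj13, a rectifier that is also in the leptomeningeal list, rose by 1.03 ± 0.17, Kcnk6 by 0.84 ± 0.13 and Kcnj15 by 0.71 ± 0.16 (lost without day 7 sample 1 or 2). Among 29 TRP, Piezo, acid-sensing, P2X and HCN genes 4 rose, a share (13.8%) close to that of all tested genes, and 3 fell. The number that fell was 1 without day 7 sample 1 or 4 or sham sample 1, 3 or 4, and 6 after centring or quantile normalization. Piezo1, a mechanosensor that is found in vessels and leukocytes, was at 1.45, 1.63, 1.71 and 1.98 FPKM in sham and 4.15, 3.93 and 3.12 FPKM on day 7. Trpm2, an oxidant-gated channel that myeloid cells carry, rose by 0.77 ± 0.18, and Trpc6 by 0.51 ± 0.11. Asic1, an acid-sensing channel, fell by 0.26 ± 0.0568, and Asic3, another, by 0.27, a call lost without 6 of the 7 samples. Of 12 sodium channel genes 2 fell (0 without day 7 sample 4, and 1 without day 7 sample 1 or any of sham samples 1, 2 and 3), among them the beta subunit Scn4b by 0.30 (lost without day 7 sample 1 or 4), and of 20 calcium channel genes 4 fell (0 without day 7 sample 4, and 2 without day 7 sample 2 or any 1 sham sample). After centring 5 sodium and 9 calcium channel genes fell, and with quantile normalization 6 and 12. Cacna2d1, the target of gabapentin, was at 23.8, 23.5, 24.8 and 27.7 FPKM in sham and 21.4, 20.2 and 19.2 FPKM on day 7, a decrease of -0.28 ± 0.0702 on the log2 scale that was lost without day 7 sample 4.

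Some peptide and injury genes passed the test. Of 22 neuropeptide genes and processing enzymes 2 fell (9.09%) and 1 rose (4.55%), against 3.45% and 14.5% of all tested genes. The number that fell was 1 without day 7 sample 1 or 4 or sham sample 1, 3 or 4, and 6, 5 and 5 after centring, with quantile normalization and in TPM, and 2 rose without sham sample 2. Bdnf, a neurotrophin that sensory neurons release, was at 6.84, 5.47, 7.95 and 6.68 FPKM in sham and 4.65, 3.59 and 4.57 FPKM on day 7 (fold change -0.55 ± 0.10, SE, adjusted p = 0.00309). Cck, a peptide hormone also made outside neurons, rose from 0.87, 0.56, 0.9 and 0.92 FPKM to 2.15, 2.15 and 2.79 FPKM. Calca, which encodes the pain peptide CGRP, was at 705, 611, 730.4 and 744 FPKM in sham and 744, 644 and 751 FPKM on day 7, and the ranges overlapped (adjusted p = 0.899). Its fold change of 0.03 flipped sign under all 3 other scalings. Tac1, the substance P gene, was at 196, 186 and 203 FPKM on day 7 against 213, 209.7, 263 and 240.5 FPKM in sham (adjusted p = 0.119). Of 20 genes of nerve injury and regeneration 4 rose (20%, against 14.5% of all tested genes). In this list 1 gene fell (5%, against 3.45%), and 0 did without day 7 sample 4. Atf3, an axon injury factor, was at 3.82, 6.96, 5.85 and 12.2 FPKM in sham and 7.99, 7.1 and 9.19 FPKM on day 7, within the sham range. Gal and Npy, peptides that rise after axotomy, were at 9.83, 7.42 and 7.09 and 7.39, 2.1 and 4.04 FPKM on day 7 and at 10.6, 10.7, 9.86 and 19.4 and 1.74, 10.6, 9.77 and 30.3 FPKM in sham, each highest in sham sample 4 (adjusted p = 0.139 and 0.51). Sprr1a, another injury gene, did not exceed 0.22 FPKM in any of the 7 samples. Csf1, a macrophage growth factor that injured sensory neurons make, and the cytokine inhibitor Socs3 rose by 0.71 ± 0.16 and 0.76 ± 0.15. Tubb6 rose by 0.75 ± 0.18, a call lost without day 7 sample 1. Jun rose by 0.28 (adjusted p = 0.0245), a call lost without 4 of the 7 samples, and Junb, of the immediate early genes, by 0.79 ± 0.19.

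**Figure D4:**
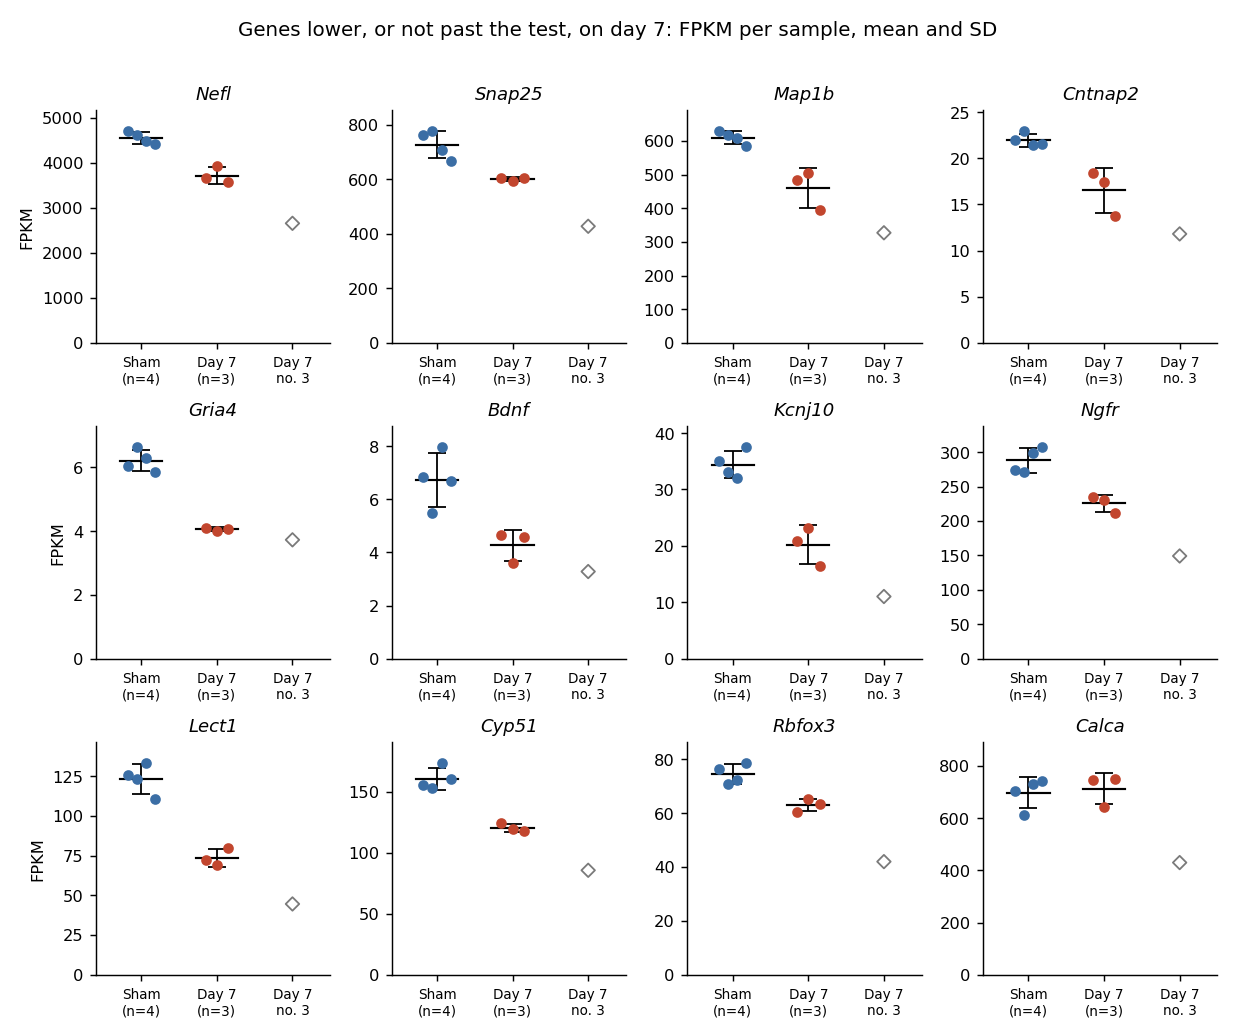
FPKM of 12 genes in each sham sample (blue), each of day 7 samples 1, 2 and 4 (red) and day 7 sample 3 (open diamond), with the mean (long bar) and SD of both groups, each panel on its own axis from 0. Red points lie slightly below blue points in all panels but Calca, whose groups overlap, and sample 3 lies lowest in each panel. Calca did not pass the test.

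Glial lists held small counts of calls in both directions. Of 14 satellite glia genes 1 rose (7.14%) and 1 fell (7.14%), against 14.5% and 3.45% of all tested genes. The number that fell was 2 without sham sample 4 and 4 after centring. Besides Kcnj10, glutamine synthetase (Glul) was at 108, 104, 114 and 118 FPKM in sham and 146, 155 and 152 FPKM on day 7, a rise of 0.44 ± 0.11 (SE) that was lost without day 7 sample 2. Fabp7, a fatty acid binding protein of these cells, was at 43.2, 33.5 and 35.2 FPKM on day 7 and 53.5, 46.4, 39.5 and 44.5 FPKM in sham, with overlap, and Ednrb changed by -0.27 (adjusted p = 0.403 and 0.0736 in this order). Gja1, the connexin that couples satellite glia, changed by 0.10 ± 0.10 (adjusted p = 0.534), a sign that flipped after centring. Of 10 tested genes of non-myelinating Schwann cells 2 rose (20%), Gfap and Jun, and 1 fell (10%), Ngfr. After centring 1 rose and 4 fell, and 1 rose without day 7 sample 2 or 4 or sham sample 1 or 2. Gfap, an intermediate filament of activated glia, was at 4.19, 9.07, 5.82 and 8.58 FPKM in sham and 15.5, 17.2 and 14.9 FPKM on day 7 and rose by 1.14 ± 0.25. Ngfr, the p75 neurotrophin receptor of glia and neurons, was at 274, 271, 299 and 307 FPKM in sham and 235, 231 and 211 FPKM on day 7 and fell by 0.35 ± 0.0703. Of 15 genes of myelinating Schwann cells 1 (6.67%), the connexin Gjc3, fell. The number was 0 without day 7 sample 2 or 4 or sham sample 1 or 2, 2 without sham sample 4 and 4 after centring. The myelin proteins Mag and Mbp changed by -0.66 and -0.24 (adjusted p = 0.0886 and 0.273), while Egr2, the regulator of myelin genes, was at 12.6, 10.6 and 10.2 FPKM on day 7 and 7.27, 9.61, 9.05 and 6.69 FPKM in sham (adjusted p = 0.0966).

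Lipid synthesis genes, which glia use for membranes and myelin, fell in part. Of 25 cholesterol synthesis genes 3 fell, or 1 without day 7 sample 4. After centring 15 fell, with quantile normalization 7 and in TPM 5. Cyp51, a sterol demethylase, was at 155, 153, 173 and 160.0 FPKM in sham and 124, 119 and 117 FPKM on day 7 (fold change -0.41 ± 0.0816, SE, adjusted p = 0.00403). Dhcr7, the last enzyme of the pathway, and Sqle, a squalene oxidase, fell by 0.47 and 0.25. The Dhcr7 call was lost without day 7 sample 4 and the Sqle call without 6 of the 7 samples. Of 20 genes of fatty acid and myelin lipid synthesis 4 fell, and 1, 2, 2 and 2 did without day 7 sample 1, day 7 sample 2, sham sample 3 and sham sample 4. After centring 14 fell, with quantile normalization 6 and in TPM 7. The desaturase Scd fell by 0.42 ± 0.11, a call lost without day 7 sample 1, and Fads2 by 0.34, a call lost without any 1 of the 7 samples.

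The largest decreases by the naming rule belonged to no single list. Tmem151a was at 9.12, 14.9, 10.8 and 14.5 FPKM in sham and 4.43, 0 and 2.75 FPKM on day 7, but this symbol is given to 2 genes in the files. The other was at 65.3, 56.0, 64.2 and 62.2 FPKM in sham and 62.2, 73.9 and 77.2 FPKM on day 7, so that reads may be split between near copies and the decrease is uncertain. The hemoglobin genes Hba2 and Hbb, of red blood cells, fell by 1.35 ± 0.37 and 1.21 ± 0.38 (SE), calls that were lost without 4 and 5 of the 7 samples. Lect1, a cartilage glycoprotein gene that was abundant in these ganglia, was at 126, 123, 133 and 110.3 FPKM in sham and 72.3, 68.7 and 79.8 FPKM on day 7, with a fold change of -0.73 ± 0.11 and an adjusted p of 0.00071, and the call held without each sample in turn. Fgf9, a fibroblast growth factor, was at 19.6, 21.9, 14.3 and 16.9 FPKM in sham and 12.3, 10.4 and 8.54 FPKM on day 7. Smoc1, a secreted calcium-binding matrix protein, fell by 0.95 ± 0.22, and Akr1b10, an aldo-keto reductase, by 0.70 ± 0.15. Th, tyrosine hydroxylase, marks touch-sensing C fibers in the ganglion and sympathetic axons, and was at 0.89, 1.44, 2.34 and 1.23 FPKM in sham and 0.31, 0.32 and 0.5 FPKM on day 7. Gjc3 was at 5.62, 5.13, 3.83 and 3.86 FPKM in sham and 3.05, 2.34 and 2 FPKM on day 7.

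Markers of tissue outside the ganglion were read in each sample. None of 10 tested muscle genes passed the test, and their median fold change was -0.56. Without sham sample 4, 9 were tested, 2 rose and the median was 0.19. Acta1, the actin of skeletal muscle, was at 5.61, 5.22, 5.72 and 177 FPKM in sham and 4.64, 4.85 and 6.95 FPKM on day 7, so that sham sample 4 alone stood apart (adjusted p = 0.387). Ckm, the muscle creatine kinase, gave the same picture, at 1.11, 1.5, 1.09 and 76.5 FPKM in sham and 1.13, 1.29 and 2.34 FPKM on day 7. So did the myosin light chain Myl1, at 0.35, 0.29, 0.63 and 61.5 FPKM in sham and 0.43, 0.45 and 1.01 FPKM on day 7. In day 7 sample 3 these genes were at 6693, 3628 and 1924 FPKM, and the muscle list made up 6.5% of all FPKM. Red blood cell genes summed to 28.6 to 52.9 FPKM in sham and 11.2 to 24.8 FPKM on day 7. Epithelial genes, which a mammary carcinoma could carry, summed to 86.3 to 99.3 FPKM in sham and 74.7 to 91.2 FPKM on day 7, and 0 of 6 tested genes passed the test. Most of this sum was Cdh1, at 81.2, 78.6, 75.7 and 65.7 FPKM in sham and 65.1, 67.8 and 57.4 FPKM on day 7. Krt19 was at 1.93, 2.36 and 1.23 FPKM and Epcam at 0.58, 0.27 and 0.29 FPKM on day 7. Neuronal genes in sample 3 lay a median of -0.77 from the sham mean, against the fold change of -0.16 in the other 3 samples.

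**Figure D5:**
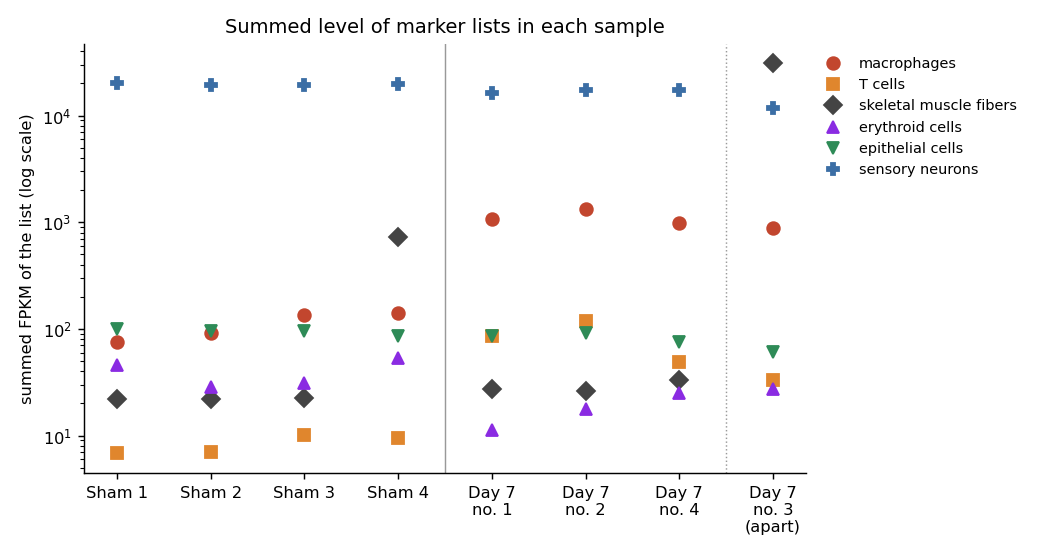
Summed FPKM, on a log axis, of 6 marker lists in each of the 4 sham samples, day 7 samples 1, 2 and 4 and, to the right of the dotted line, day 7 sample 3. Macrophage and T cell sums are higher in all day 7 samples than in all sham samples, sensory neuron sums are slightly lower, and the muscle sum stands apart in sham sample 4 (727 FPKM) and day 7 sample 3 (30800 FPKM).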

How the data were processed

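RNA-seq of the ganglia was processed by the authors, who removed poor reads, used HISAT, Bowtie2 and RSEM for mapping and quantification, and deposited FPKM per gene, 1 table per sample. The genome build and annotation are not given in the sources used here, and the labels name an Illumina protocol while the methods name BGISEQ-500. The tables list 21021 genes, of which 19220 identifiers were found in the RefSeq table of GRCr8. The low values of only 8 genes could be compared for depth, too few for an estimate. No pair of samples shared over 2.4% of identical values above 0.

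The deposited FPKM values were turned into log2(FPKM + 1), and a gene was tested if 3 or more of 14 samples had 1 FPKM or more. All 4 groups entered the fit of limma 3.58.1 (lmFit, eBayes with trend, R 4.3.3), without day 1 sample 2 and day 7 sample 3, with Benjamini-Hochberg adjustment. The count-based test of the study could not be run on FPKM. The procedure was run on simulated data with independent noise, where 100 genes were raised and 100 lowered by 2 on the log2 scale. All were recovered, with 0 false calls. The changed genes had a mean sham log2(FPKM + 1) over 2, so that smaller changes and lower levels were not covered. Lists were described by counts and medians, with no test over a list. Alternatives were other samples in the fit, each sample left out, no trend, other scalings, filters and pseudocount, and a replicate block.

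The groups, gene lists and named genes were chosen with earlier results of these data known. The naming rule took the 10 largest increases at the cut-offs of the study and the 10 largest decreases at an adjusted p of 0.05, without overlap between groups, and from each list the 3 largest, the 3 most negative and the first 3 genes. Of the 377 tested genes that it gave, the text names 149, chosen after their values were seen, and a few are not reported here. Mrc1, Cd4, Cfb, Igtp, Irgm2, Kcna2 and the 4 leptomeningeal genes were named outside it after their values were seen, as was the leptomeningeal list. Day 1 and day 14 samples entered only the estimate of the spread. Plots used matplotlib 3.10.9 and Python 3.11.15.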

Additional observations from a re-analysis of the deposited data

Results flagged for a closer look

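Within the 4 sham samples a value was looked at again where its gap to the nearest other sample took more than 0.829 of the range of the group, which chance gives for about 1 in 20 groups. Among the genes and lists named above, sham sample 4 was high for Acta1 (176.98 FPKM), Ckm (76.45 FPKM) and Myl1 (61.53 FPKM), and for the muscle list, whose mean log2(FPKM + 1) was 3.59. The same sample was high for Cxcl13 (1.99 FPKM), Slc6a20 (6.20 FPKM), Cdh5 (7.34 FPKM) and Gal (19.44 FPKM), and apart for the calcium channel list, with a mean of 2.84. Sham sample 3 was high for Igtp (4.50 FPKM), Slfn4 (1.51 FPKM), MGC108823 (2.21 FPKM), Dhcr7 (32.95 FPKM) and the cholesterol synthesis list (a mean of 5.75). Sham sample 2 was low for Cck (0.56 FPKM) and Asic3 (81.19 FPKM) and high for Scn8a (29.79 FPKM), Kcna1 (101.53 FPKM) and the list of GABA and glutamate receptors (a mean of 2.0). All these genes kept their direction without the sample in question, except Ckm, and Myl1, which then had too few samples over the filter to be tested.

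Day 7 sample 3, which is in no comparison, held 30800 FPKM of the 25 muscle genes, or 6.5% of its FPKM, against at most 727 FPKM in a sham sample.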

How the results depend on the processing

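All 4 counts of changed genes moved with the settings. The number of higher genes there was 257, and it was 413 with only the 7 samples in the fit, 164 with no filter on low values, 123 with a mean of at least 5 FPKM, and 49 to 210 with a sample left out. The fewer genes tested under the stricter filter account for part of that change, and the cause of the others was not tested. The number of lower genes there was 0 in all settings but quantile normalization, with 1. The number of genes higher at an adjusted p of 0.05 was 1341 with quantile normalization and 1157 with a mean of at least 5 FPKM, and 1411 to 1778 with a sample left out. The number of genes lower was 2057 after centring on the median, 2320 with quantile normalization and 945 after rescaling to TPM, and 296 to 373 with a sample left out. With the replicate block 112 genes were higher at the cut-offs of the study, and 1905 rose and 520 fell at an adjusted p of 0.05. The sample numbers did not pair the samples, since the correlations of deviations were -0.046, -0.084 and 0.071 for numbers 1, 2 and 4, and 0 of 3 day 7 samples correlated best with its own number.

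Signs changed in 1 or more settings for 80 of the 377 tested genes that the naming rule gave, none of which passed the test. The text names 14 of them and leaves out 66. With all 16 samples, so that day 7 sample 3 entered, the fold change was -0.202 for Trpv1, -0.149 for Calca, -0.177 for Avil, -0.103 for Scn11a, 0.125 for Flt1, 1.290 for Acta1, 1.528 for Ckm and 1.375 for Myl1. After centring on the median it was -0.098 for Trpv1, -0.077 for Calca, -0.108 for Avil, -0.020 for Scn11a, -0.109 for Kdr, -0.013 for Gja1 and -0.048 for Pdgfrb. With quantile normalization it was -0.035 for Trpv1, -0.025 for Calca, -0.133 for Avil, -0.204 for Kdr, -0.063 for Cd22, 0.069 for Uchl1 and -0.033 for Pdgfrb. In TPM it was -0.046 for Trpv1, -0.027 for Calca, -0.057 for Avil and -0.053 for Kdr, and Kdr was at -0.003 with a pseudocount of 0.1 and at -0.040 with the replicate block. Over the samples left out the range was -0.060 to 0.068 for Trpv1, -0.030 to 0.103 for Calca, -0.068 to 0.053 for Avil, -0.081 to 0.124 for Kdr, -0.065 to 0.097 for Flt1, -0.074 to 0.033 for Ntrk3 and -1.549 to 0.188 for Ckm, which turned positive without sham sample 4. Medians flipped to negative after centring for the mural, clock, respiratory chain and zinc finger lists, which lay near 0. Precision is limited by 3 and 4 samples and by the unknown depth, and changes of genes under a few FPKM are the least certain.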
